A study of Mus musculus with 24 samples.

Results

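Olfactory receptor genes encode the odorant receptors of the nose, and on mouse chromosome 7 they form one of the large receptor gene groups of the genome. Their promoters were examined as captured fragments (baits) in promoter capture Hi-C, an assay that cross-links chromatin, cuts it with HindIII, ligates ends that lie together in the nucleus and enriches the junctions that carry a promoter. A bait was taken where it held, or lay within 1 kb of, an annotated end of a chromosome 7 gene whose symbol starts with Olfr. This gave 200 baits of 22203 in all, 198 with the gene end inside the fragment and 2 only nearby. They carried 210 of the 294 annotated receptor genes of the chromosome, and 84 genes had no bait. Of the baits, 16 held several receptor genes and 2 also held a gene of another kind. In 6 baits every receptor gene was a pseudogene, and these include the Olfm5/Olfr647-ps1 bait, which also held Olfm5.

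The 24 libraries were from mouse embryos and were labelled cranial neural crest cells, the migratory cells that form much of the face. There were 12 groups of 2 libraries. One group was wild-type (WT) progenitors at E8.5. At E11.5, 4 tissues labelled FNP, Mx, Md and PA2 were each sampled as WT and as Ezh2cKO, a conditional knockout of the Polycomb methyltransferase Ezh2. The remaining E11.5 groups were Hoxa2PTE-36kb-del in Md and in PA2, and Hoxa2PTE-42kb-del in PA2. The protocols name cell sorting for Wnt1::Cre;ROSARFP embryos, in which a neural crest driver marks the cells, and for Ezh2cKO embryos; for deletion embryos the sources used here name no sorting and no location of the deletion, and they name neither a Cre driver for the knockout nor a strain. The assay measured no RNA, so the labelled cell type could not be checked by expression, and in bulk libraries a contact in a few cells and a weak contact in many cannot be told apart.

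Each library listed between 142284 and 190343 called interactions (calls), which are fragment pairs with a score of 5 or more, of which 4763 to 7927 joined different chromosomes (trans). Read depth is unknown. In the 18 WT and Ezh2cKO libraries a pair of baits was always listed under the bait of the higher coordinate (0% under the lower), whereas in the 6 deletion libraries 48.7% to 49.2% were listed under the lower. Calls were therefore counted for a bait at either end. The deletion lists were thus written differently from all others, and a difference of processing and an effect of the deletion cannot be told apart in the deletion comparisons.

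Each mature olfactory sensory neuron expresses a single receptor allele, while the other receptor genes are held in silent chromatin. In those neurons, receptor clusters of different chromosomes gather and enhancers bound by Lhx2, Ebf and Ldb1 form hubs around the active gene. Neural crest cells are not olfactory neurons, so if the labels hold, the contacts described are those of receptor genes outside olfactory neurons.

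The promoters of 4 members on which the results turn are shown as RefSeq windows of GRCm38.p6, from 250 bases before to 50 after the annotated gene start, 5′ to 3′. Olfr556 had the lowest adjusted p of the rises from E8.5 to E11.5, and Olfr620 had the most trans calls. Olfr550 passed the threshold in 3 comparisons, as did Olfr566/Olfr567-ps1, Olfr707, Olfr1346 and Olfr1348. E11.5 WT libraries enter all 4 comparisons, added in the stage comparison and subtracted in the others. Passing in several comparisons is therefore not independent recurrence. Olfr583 was higher in both deletions, as was Olfr566/Olfr567-ps1. Capitals mark a HindIII site (AAGCTT). The windows are chr7:102669651-102669950 (+) for Olfr556, chr7:102578219-102578518 (+) for Olfr550, chr7:103051050-103051349 (+) for Olfr583 and chr7:103612302-103612601 (-) for Olfr620.
Olfr556: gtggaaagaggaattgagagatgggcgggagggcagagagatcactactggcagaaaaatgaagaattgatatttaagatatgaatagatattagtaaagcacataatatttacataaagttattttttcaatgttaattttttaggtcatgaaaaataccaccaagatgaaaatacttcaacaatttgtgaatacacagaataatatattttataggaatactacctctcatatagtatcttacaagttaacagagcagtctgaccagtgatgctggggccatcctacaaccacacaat
Olfr550: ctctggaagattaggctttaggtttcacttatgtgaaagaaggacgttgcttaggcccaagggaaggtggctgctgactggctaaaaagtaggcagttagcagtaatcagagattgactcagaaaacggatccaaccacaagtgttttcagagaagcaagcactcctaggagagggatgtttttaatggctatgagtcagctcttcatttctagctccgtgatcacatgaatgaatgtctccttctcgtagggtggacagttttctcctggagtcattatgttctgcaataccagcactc
Olfr583: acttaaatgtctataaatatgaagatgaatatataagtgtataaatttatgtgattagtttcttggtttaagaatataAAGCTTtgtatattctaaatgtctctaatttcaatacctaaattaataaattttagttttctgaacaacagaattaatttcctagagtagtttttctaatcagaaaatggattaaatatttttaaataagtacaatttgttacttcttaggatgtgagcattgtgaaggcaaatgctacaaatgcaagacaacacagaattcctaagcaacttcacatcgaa
Olfr620: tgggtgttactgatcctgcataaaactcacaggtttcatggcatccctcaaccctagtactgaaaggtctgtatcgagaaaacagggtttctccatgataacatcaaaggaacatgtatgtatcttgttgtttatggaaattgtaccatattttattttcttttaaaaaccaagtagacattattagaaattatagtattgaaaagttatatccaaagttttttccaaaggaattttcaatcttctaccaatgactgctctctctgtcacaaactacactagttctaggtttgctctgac
The Olfr583 bait (start 103051129, end 103053592) begins at the second base of the marked site, where HindIII cuts, so the bases of the window before the cut lie in the neighbouring fragment. All 14 HindIII sites in the 171 promoter windows that start inside a member bait fell on a fragment boundary of the deposited lists. These windows were poor in G and C, with a median of 37.3% against 52.7% over all 32851 promoter windows, and 31.0% of them had no CpG against 5.43%. On either strand, the homeodomain-like motif TAATTA was found in 20 member windows (11.7%), in 20.0% of receptor windows of other chromosomes and in 5.29% of all windows. AAGCTT, which reads the same on both strands, was found in 8.19% of member windows and 7.46% of all windows. The motifs do not overlap in letters, and a match is a description of the sequence only.

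The receptor genes fell into 7 clusters, separated where neighbouring genes lay more than 1 Mb apart. Cluster 5 was the largest, with 158 genes and 112 baits between 102476773 and 105369317. It holds the class I receptors, the family related to fish receptors, and the beta-globin genes lie within it. Cluster 6 had 80 genes and 49 baits, cluster 7 had 25 genes and 14 baits, cluster 3 had 18 genes and 13 baits, and cluster 1 had 9 genes and 8 baits. Clusters 2 and 4 had 2 genes and 2 baits each.

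The mean number of cis calls of a member over the 24 libraries, meaning calls on its own chromosome, had a median of 6.31 over members, against 7.46 for chromosome 7 baits without a receptor gene, 6.58 for the 223 receptor baits of chromosome 2 and 4.5 for all baits. The 5 members with most cis calls were Olfr1344, Olfr1336, Olfr548-ps1, Olfr1347/Olfr5 and Olfr550. Olfr1344, in the small cluster 1, had a mean of 56.7 calls, and its E11.5 WT libraries ranged from 43 to 71. The other leading members of their clusters were Olfr291 in cluster 2 (mean 8.46), Olfr304 in cluster 3 (14.5), Olfr520 in cluster 4 (4.33), Olfr548-ps1 in cluster 5 (40.9), Olfr498 in cluster 6 (18.4) and Olfr524 in cluster 7 (15.3). Across the 200 members, Spearman's rho between fragment length and mean cis calls was 0.0226, as a description.

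Members made 17691 distinct cis calls, and 76.3% of these were seen in 1 library. In contrast, 30 were found in all 24 libraries, 17 of them within a cluster. Olfr1344 reached a fragment in Clcn4, which encodes a chloride transporter, at 845 kb and a fragment in Usp29, an imprinted gene, at 499 kb in every library. Olfr633 reached 4 fragments between 102502771 and 102515836, 1.43 to 1.44 Mb away inside the same cluster, in every library. Olfr669 and Olfr666, 46.1 kb apart, and Olfr498 and Olfr484, 343 kb apart, were pairs of receptors joined in all 24.

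The member share, meaning calls counted at each member end over a library's cis calls, was larger in E11.5 WT than in E8.5 WT. A call joining 2 members entered it 2 times, so it exceeds the percent of distinct calls. Such calls numbered 289 and 294 at E8.5 and 319 to 365 in E11.5 WT. The share was 1.03% and 1.01% in the E8.5 libraries and 1.14% to 1.34% in the 8 E11.5 WT libraries, so the groups did not overlap. Among the E11.5 WT groups it was 1.24% ± 0.00244 in PA2, 1.27% ± 0.105 in Md, 1.18% ± 0.0674 in Mx and 1.17% ± 0.0309 in FNP (SD, n = 2 each). In Ezh2cKO it was 1.11% ± 0.0342 in PA2, 0.961% ± 0.098 in Md, 1.16% ± 0.0726 in Mx and 1.05% ± 0.161 in FNP, and the 8 libraries (0.892% to 1.21%) overlapped those of WT. It was 1.31% ± 0.00696 in the 36kb deletion in Md, 1.28% ± 0.0879 in the same deletion in PA2 and 1.03% ± 0.0146 in the 42kb deletion. These sums over chosen baits were given no p.

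**Figure D1:**
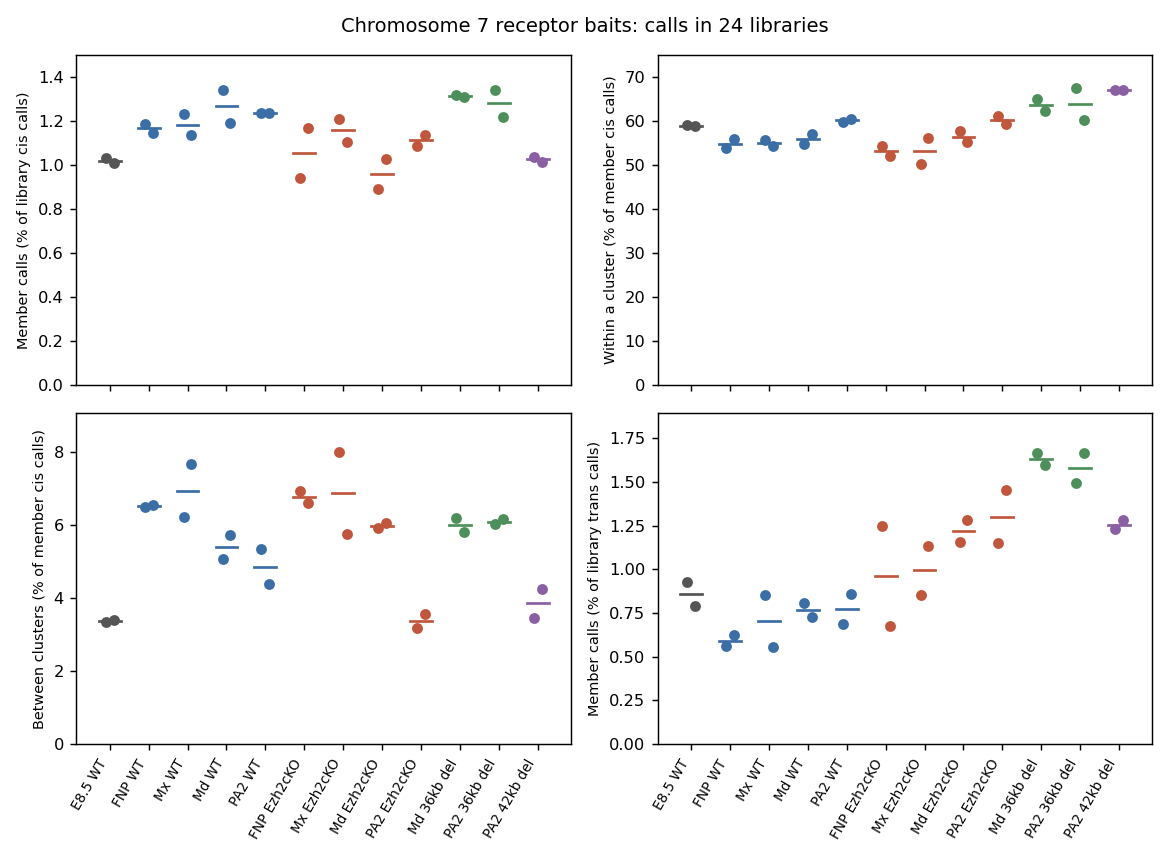
Calls of the 200 receptor baits in each of 24 libraries (points) and the mean of each group of 2 (lines), as the percent of a library's cis calls (top left), the percent of member cis calls within a cluster (top right) and between clusters (bottom left), and the percent of a library's trans calls (bottom right). A call joining 2 of the baits counts for each of them. Both E8.5 libraries lie below the E11.5 WT libraries in the cis share, and the deletion groups have the highest mean within-cluster shares, 63.7% to 67.1%.

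The stage comparison asked how contacts differ between progenitors and E11.5 tissues. Of the 200 members, 129 had a mean of at least 5 calls and were tested with limma across all 10344 such baits. Of these, 26 rose at E11.5 and 7 fell (25.6%), against 28.9% of all tested baits, 18.6% rising and 10.3% falling. The members' share was thus near the background. The median log2 change of tested members was 0.34, against 0.03 over all baits, 0.00 over chromosome 7 baits without a receptor and -0.10 over chromosome 2 receptor baits. In chromosome 2 receptors 6 of 130 rose and 4 fell.

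The 10 largest rises were at Olfr699, Olfr571/Olfr572, Olfr607, Olfr610, Olfr709-ps1, Olfr697, Olfr707, Olfr293, Olfr65 and Olfr547. Olfr699, a cluster 6 receptor, had 1 and 3 calls at E8.5 and a lowest, median and highest of 6, 10 and 18 at E11.5, so its groups did not overlap. It rose by 2.07 on the log2 scale (SE 0.38, limma adjusted p = 0.000296). The bait of the class I pair Olfr571/Olfr572 had 1 call in each E8.5 library and 3 to 7 at E11.5 (log2 change 1.91, SE 0.36, adjusted p = 0.000452).
Olfr547 had 8 and 9 calls at E8.5 and 15, 20 and 35 as lowest, median and highest at E11.5 (log2 change 1.15, SE 0.24, adjusted p = 0.00103). Olfr556 had 14 and 17 calls at E8.5 and 28, 35 and 48 at E11.5 (log2 change 1.06, SE 0.16, adjusted p = 4.9e-05). Both lie in cluster 5 and neither overlapped between stages. The other 7 of the 10 rose by 1.19 to 1.71.

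Of the 7 falls, 5 lay in cluster 7, at the distal end of the chromosome. Of the 10 tested members of cluster 7, 5 fell and 0 rose, and their median log2 change was -0.76. Olfr523 had 25 and 27 calls at E8.5 and 10, 13 and 17 as lowest, median and highest at E11.5, with no overlap (log2 change -1.06, SE 0.23, adjusted p = 0.00136). Olfr533 had 10 and 12 calls at E8.5 and 3 to 5 at E11.5 (log2 change -1.48, SE 0.39, adjusted p = 0.0066). The other falls were Olfr530 (-1.44), Olfr522 (-0.98) and Olfr524 (-0.74) in cluster 7, and Olfr656 (-1.08) and Olfr566/Olfr567-ps1 (-0.80) in cluster 5. With only 2 E8.5 libraries the calls were sensitive to each: 14 members passed without E8.5 replicate 2 and 21 without replicate 1. Those that passed in all 24 leave-one-out fits were Olfr699, Olfr571/Olfr572, Olfr547, Olfr556 and Olfr523.

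**Figure D2:**
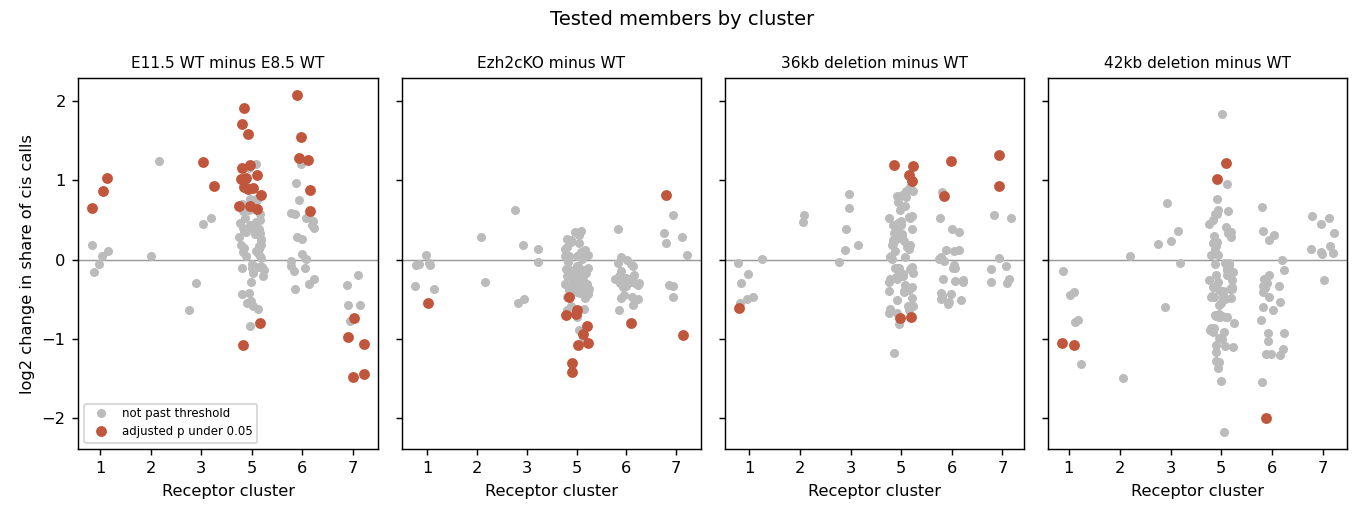
log2 change in a bait's share of cis calls (y axis) for the 129 tested members, by receptor cluster (x axis; cluster 4 had no tested member), in 4 comparisons. Filled red points passed an adjusted p of 0.05; in the stage comparison the cluster 7 points lie below 0, whereas most points of clusters 5 and 6 lie above it.

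Member calls were also longer at E11.5. The median distance of a member cis call was 746 and 760 kb at E8.5 and 1150 to 1230 kb in E11.5 WT, with no overlap. Over the same libraries the median of chromosome 7 baits without a receptor moved the other way, from 708 kb ± 45.9 (SD, n = 2) to 570 kb ± 54.2 (SD, n = 8), and that of chromosome 2 receptors went from 931 kb ± 20.3 to 974 kb ± 65.8. The median of receptor baits of chromosomes other than 2 and 7 went the same way as that of members, from 594 kb ± 9.71 to 730 kb ± 39.0, also without overlap. Calls at 10 Mb or more made up 11.6% and 12.3% of member calls at E8.5 and 14.8% to 21.8% in E11.5 WT. The share was also higher at E11.5 in the other receptor classes, at 7.37% ± 0.868 and 10.0% ± 1.23 on chromosome 2 and 11.8% ± 0.39 and 15.9% ± 0.748 on the remaining chromosomes, whereas chromosome 7 baits without a receptor had 23.6% ± 0.513 and 19.9% ± 0.733. The difference between bait classes was not tested. In Ezh2cKO the median distance of member calls was 1209 kb ± 59.0 (SD, n = 8), in the 36kb deletion 979 kb ± 48.0 (n = 4) and in the 42kb deletion 873 kb ± 2.42 (n = 2). Other chromosome 7 baits had 508, 378 and 357 kb in the same libraries.

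**Figure D3:**
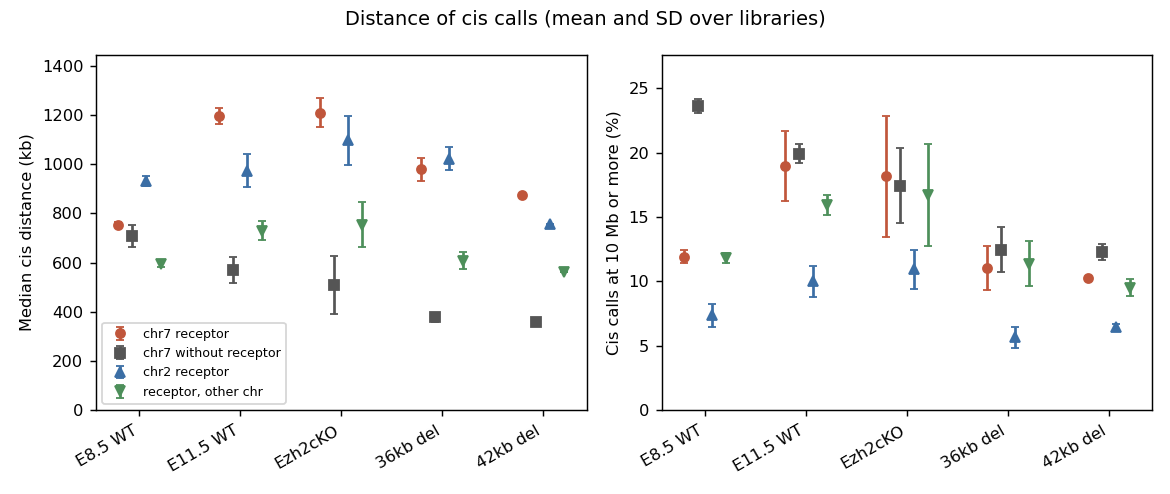
Median distance of cis calls in kb (left) and percent of cis calls at 10 Mb or more (right) for 4 bait classes in 5 library classes; points are means and bars SD over 2, 8, 8, 4 and 2 libraries. The receptor baits of chromosome 7 go from 753 to 1196 kb between E8.5 and E11.5 WT, chromosome 2 receptors from 931 to 974 kb, receptors of the remaining chromosomes from 594 to 730 kb, and other chromosome 7 baits from 708 to 570 kb.

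Counted at each member end, calls between clusters numbered 52 and 54 at E8.5 and 90 to 149 in E11.5 WT. They made up 3.36% and 3.40% against 4.39% to 7.68% of member calls, and the groups did not overlap. Within the E11.5 WT groups the share was 4.87% ± 0.677 in PA2, 5.41% ± 0.456 in Md, 6.95% ± 1.03 in Mx and 6.53% ± 0.0385 in FNP (SD, n = 2 each). In Ezh2cKO it was 3.38% ± 0.277 in PA2, 5.99% ± 0.1 in Md, 6.88% ± 1.59 in Mx and 6.78% ± 0.232 in FNP, and the 8 libraries (3.19% to 8.00%) overlapped those of WT. The 36kb deletion had 5.82% to 6.21%. The 42kb deletion had 3.46% and 4.26%, both below the WT PA2 libraries. Chromosome 2 receptors were also lower in the 42kb deletion, at 1.86% and 1.18% against 2.97% and 3.04% in WT PA2. So were receptors of the remaining chromosomes, at 0.64% and 0.91% against 1.79% and 1.77%. The between-cluster share was higher at E11.5 in the other receptor classes too, at 0.582% ± 0.0706 and 2.84% ± 0.590 on chromosome 2 and 0.445% ± 0.013 and 2.02% ± 0.395 on the remaining chromosomes (E8.5 and E11.5 WT). For pairs of clusters each call was counted 1 time, so the following counts are not parts of the totals above. The neighbouring clusters 5 and 6 gave 1154 calls over the 24 libraries. Their mean per library was 26.0 at E8.5 (23 to 29) and 56.6 ± 10.7 in E11.5 WT (46 to 79). Clusters 3 and 5, about 17.2 Mb apart, had 2 to 4 calls at E8.5 and 5 to 16 in E11.5 WT, and clusters 3 and 6 had 3 to 4 and 5 to 17.

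Single contacts between clusters seldom recurred. Of 1678 distinct pairs, 92.2% were seen in 1 library and none in more than 4. Those found in 4 libraries included Olfr693 with Olfr304 at 20.3 Mb, Olfr310 with Olfr291 at 1.41 Mb, Olfr510 with Olfr665 at 3.79 Mb and Olfr483 with Olfr629 at 4.36 Mb. Of member calls at 10 Mb or more, 7.20% ± 0.699 at E8.5 (n = 2) and 8.95% ± 1.90 in E11.5 WT (n = 8) ended in another receptor cluster. Of the chromosome 7 fragments that lay 10 Mb or more from a member, 2.20% were in a receptor cluster (mean over members, of fragments seen in any call). The difference between stages in this share was larger in the other receptor classes, from 4.49% ± 0.777 to 25.7% ± 4.05 on chromosome 2 and from 3.29% ± 0.0174 to 12.5% ± 2.18 on the remaining chromosomes, and chromosome 7 baits without a receptor had 0.911% ± 0.0436 and 2.26% ± 0.376. These differences between classes were not tested. Vomeronasal receptor clusters, which hold pheromone receptor genes and 7.78% of the fragments at such distances, received 9.50% and 10.3% of the long calls at E8.5 and 18.1% ± 4.38 in E11.5 WT (SD, n = 8). Here too other classes had more at E11.5, at 3.91% ± 0.322 and 6.40% ± 0.455 for chromosome 7 baits without a receptor and 0.778% ± 0.173 and 10.9% ± 1.62 for receptor baits of chromosomes other than 2 and 7.

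The share of member calls that stayed within a cluster was also counted by member end. It was 58.9% and 59.2% at E8.5 and 53.9% to 60.6% in E11.5 WT, so the stages overlapped. By group it was 60.2% ± 0.476 in PA2, 55.9% ± 1.64 in Md, 55.0% ± 0.88 in Mx and 54.9% ± 1.44 in FNP. In the Ezh2cKO libraries it ranged from 50.4% to 61.2%. It was 60.3% to 67.5% in the 36kb deletion and 67.0% and 67.1% in the 42kb deletion. Receptor baits of other chromosomes also had higher shares in deletion libraries, 63.6% ± 2.28 in the 36kb deletion against 55.0% ± 1.05 in E11.5 WT.

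In Ezh2cKO, 13 tested members fell and 1 rose (10.9%), against 10.8% of all tested baits, 5.39% falling and 5.38% rising. Dividing by the library's chromosome 7 calls instead of all cis calls gave 8 falls and 4 rises, and 9 of the 14 still passed. That divisor moved the median of all baits from 0.01 to 0.18. The share of all baits passing with it is not given here, so these counts cannot be set against a background. Falls were also more frequent than rises among chromosome 7 baits without a receptor, 127 against 27 of 950. The median log2 change was -0.26 for members, -0.09 for those other chromosome 7 baits and 0.01 over all baits.

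Olfr550, a class I receptor, had 23, 37 and 42 calls as lowest, median and highest in the 8 Ezh2cKO libraries and 40, 49.5 and 71 in WT. The ranges overlapped only between 40 and 42, and the fall was 0.63 on the log2 scale (-0.63, SE 0.12, limma adjusted p = 0.00177). Olfr610 had 1, 3 and 14 in Ezh2cKO and 6, 11 and 16 in WT (log2 change -1.41, SE 0.29, adjusted p = 0.00306). Both were among the 5 members that passed in every leave-one-out fit, with Olfr573-ps1 (-1.08), Olfr69 (-0.70) and Olfr1348 (-0.54).
Of the 10 largest falls, the others were Olfr628 (-1.30), Olfr67 (-1.05), Olfr527 (-0.95), Olfr613/Olfr615 (-0.94), Olfr594 (-0.83), Olfr707 (-0.80) and Olfr561 (-0.68). Olfr78, a receptor also known outside the nose, in the carotid body and kidney, fell as well (-0.47, adjusted p = 0.0301), but had an adjusted p of 0.17 when divided by chromosome 7 calls. Olfr533 was the single rise, with 2, 8 and 13 calls against 3, 4 and 5 (log2 change 0.81, SE 0.24, adjusted p = 0.0374). The number passing was 7 without FNP Ezh2cKO replicate 1, 8 without PA2 Ezh2cKO replicate 1, and 9 without either Mx Ezh2cKO replicate 2 or Md WT replicate 1.

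By tissue in limma, 1 member passed in Md, Olfr550, against 1.84% of all tested baits. None passed in FNP (0.831% of all baits), Mx (1.26%) or PA2 (1.63%). At an unadjusted p under 0.05 there were 28 members in Md, 17 in FNP, 10 in Mx and 12 in PA2. The limma F test for a difference of the knockout effect between tissues was passed by 0 members (6 at an unadjusted p under 0.05) and 0.00967% of all baits. The limma F test between WT tissues was passed by 0 members (9 unadjusted) and 0.271% of all baits.

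**Figure D4:**
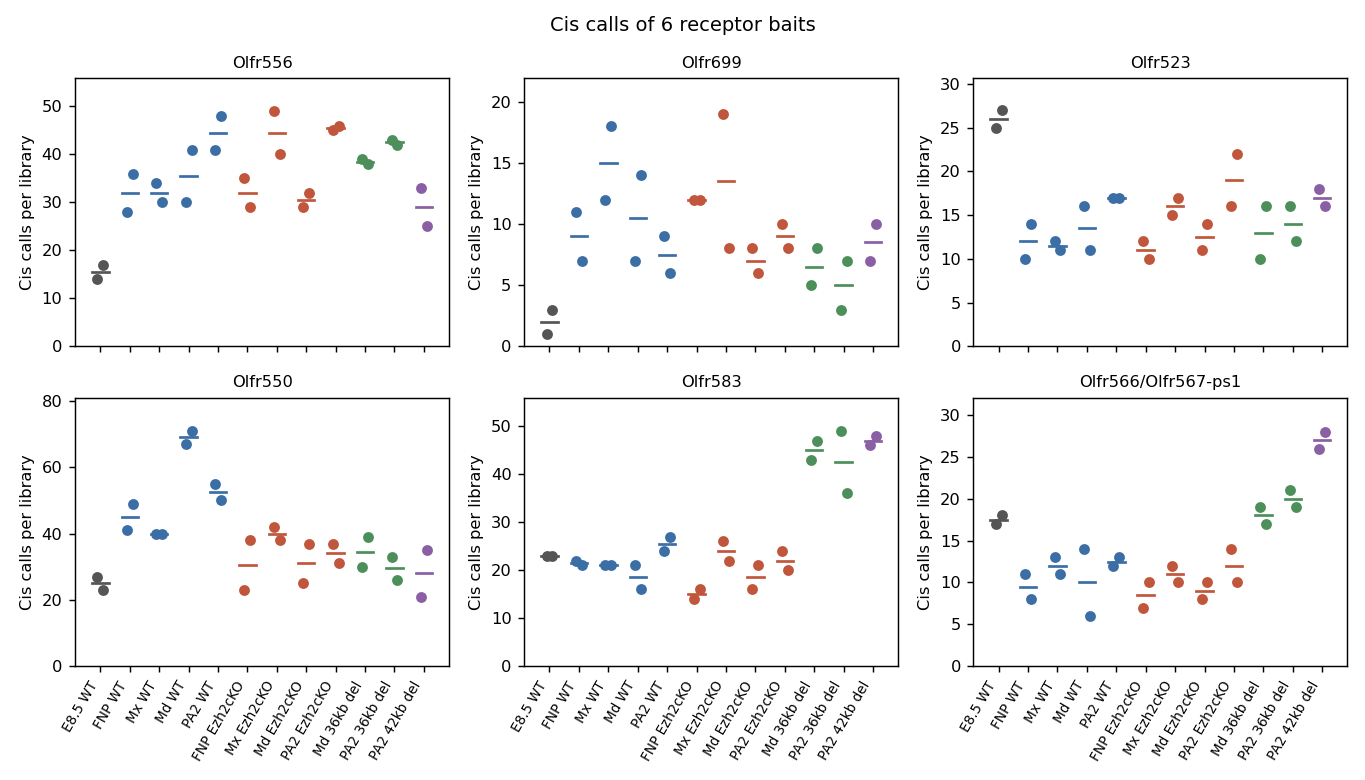
Cis calls per library (points) and group means (lines) of 6 receptor baits in the 12 groups. The group means of Olfr556 and Olfr699 are lowest and that of Olfr523 highest at E8.5; Olfr583 has 36 to 49 calls in the 6 deletion libraries and 14 to 27 in the other 18.

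In the 36kb deletion, compared with WT of Md and PA2, 8 members rose and 3 fell (8.53%), against 11.1% of all tested baits, 5.46% rising and 5.65% falling. With chromosome 7 calls as the divisor 15 rose and 0 fell, while the median of all baits moved from 0.04 to 0.27. In Md alone Olfr583 and Olfr530 rose, against 3.08% of all baits, and in PA2 alone Olfr583 rose, against 1.5%. In the 42kb deletion, compared with WT PA2, 2 rose and 3 fell (3.88%), against 1.84% of all tested baits, 0.822% rising and 1.02% falling. The same divisor gave 3 rises and 1 fall with a median of all baits of 0.22, and median centring gave 1 and 4. For these alternative settings of both deletions the share of all baits passing is not given here. Their counts of members therefore cannot be set against a background. Both deletion comparisons use the PA2 WT libraries. The median log2 change of members was 0.01 in the 36kb and -0.34 in the 42kb deletion. Among chromosome 2 receptor baits 34 of 130 rose and 0 fell in the 36kb deletion.

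Olfr583, a class I receptor of cluster 5, had the lowest adjusted p of the members in both deletions. It had 43 and 47 calls in the Md and 49 and 36 in the PA2 libraries of the 36kb deletion, 46 and 48 in the 42kb deletion, and 21, 16, 24 and 27 in WT Md and PA2. The deletion libraries did not overlap WT. It rose by 1.19 on the log2 scale in the 36kb deletion (SE 0.15, limma adjusted p = 5.4e-05) and by 1.01 in the 42kb deletion (SE 0.21, adjusted p = 0.0169). Counting calls of the first column alone gave 1.19 and 1.01.
Olfr566/Olfr567-ps1 had 17 to 21 calls in the 36kb deletion, 26 and 28 in the 42kb deletion and 6 to 14 in WT Md and PA2, and rose by 0.99 (adjusted p = 0.00801) and 1.22 (adjusted p = 0.0492). The other rises in the 36kb deletion were Olfr530 (1.32), Olfr467/Olfr468-ps1 (1.24), Olfr584 (1.18), Olfr629 (1.07), Olfr60 (0.93) and Olfr483 (0.80).

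Falls in the 36kb deletion were Olfr548-ps1 (-0.74, adjusted p = 0.00708), Olfr550 (-0.72, adjusted p = 0.0114) and Olfr1346 (-0.61, adjusted p = 0.044). Olfr550 had 26 to 39 calls against 50 to 71 in WT, with no overlap. Divided by chromosome 7 calls, the adjusted p was 0.0524 for Olfr548-ps1, 0.0601 for Olfr550 and 0.169 for Olfr1346. Falls in the 42kb deletion were Olfr707 (-2.00), with 3 and 1 calls against 7 and 13, Olfr1348 (-1.07) and Olfr1346 (-1.05); the last had an adjusted p of 0.0859 and Olfr1348 of 0.0562 with the chromosome 7 divisor. The members that passed in every leave-one-out fit were Olfr583, Olfr566/Olfr567-ps1 and Olfr548-ps1 for the 36kb deletion; for the 42kb deletion none did, 0 passed without either WT PA2 replicate, and 2 or 3 passed without any 1 of the Mx WT, Md WT and 36kb deletion libraries, the Ezh2cKO libraries of Mx, Md and PA2, FNP WT replicate 2 and 42kb deletion replicate 1. For the 36kb deletion the count was 4 without Md deletion replicate 1, 6 without Md WT replicate 2, either PA2 WT replicate or PA2 deletion replicate 1, and 7 without Md WT replicate 1 or PA2 deletion replicate 2.

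Summed over 1 Mb windows, calls of all baits in the 12 windows that hold members were tested against 1655 windows. In the stage comparison 7 rose and 1 fell, against 54% of all windows. The window at 106 Mb, where 16 of 17 baits are members, had a mean of 85.5 calls at E8.5 and 152 in E11.5 WT (log2 change 0.72, SE 0.11, adjusted p = 1.59e-06). The window at 140 Mb, with 14 members of 38 baits, fell (-0.29, adjusted p = 0.00195). In Ezh2cKO 6 fell and 0 rose against 29.1% of windows, in the 36kb deletion 3 fell and 1 rose against 31.1%, and in the 42kb deletion 3 fell and 1 rose against 13.3%. The count of windows was 5 for stage without E8.5 replicate 2, 2 for the 36kb deletion without Md WT replicate 2, and 2 for the 42kb deletion without any 1 of the PA2 WT or 42kb deletion libraries.

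The beta-globin genes, which encode the beta chains of haemoglobin, sit among the class I receptors. Member calls into the span of these genes numbered 28 and 29 at E8.5 and 37 to 78 in E11.5 WT, without overlap. They were highest in Md (75.5 ± 3.54) and PA2 (76.0 ± 2.83) and lower in FNP (48.5 ± 3.54) and Mx (50.5 ± 19.1; SD, n = 2 each). In Ezh2cKO they numbered 25 to 63, in the 36kb deletion 46 to 56 and in the 42kb deletion 30 and 33. Of the 5 globin baits, 1 rose with stage in limma, Hbb-bh1/Hbb-bh2 (0.97, adjusted p = 0.0343). The same bait fell in Ezh2cKO (-1.17, adjusted p = 0.00105), and both comparisons use the same E11.5 WT libraries. Hbb-bs fell in the 36kb (-0.91, adjusted p = 0.0139) and 42kb deletions (-1.71, adjusted p = 0.00826). Of 10 tested baits of erythroid markers, which include globin genes, 1 rose and 1 fell with stage and 1 fell in each other comparison; their part in the member results was not tested.

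Members made few trans calls. There were 49 and 44 per library at E8.5 and 30 to 49 in E11.5 WT. By WT group the means were 42.5 ± 6.36 in PA2, 41.5 ± 6.36 in Md, 39.5 ± 13.4 in Mx and 31.0 ± 0.0 in FNP (SD, n = 2 each). In Ezh2cKO they were 96.0 ± 26.9 in PA2, 88.5 ± 14.8 in Md, 64.0 ± 11.3 in Mx and 60.5 ± 29.0 in FNP, and the 8 libraries (40 to 115) overlapped WT. The deletion libraries did not overlap WT, with 76 to 89 in the 36kb and 77 and 80 in the 42kb deletion. Trans calls per bait were also higher in other classes: chromosome 7 baits without a receptor had 0.119 ± 0.0131 in E11.5 WT, 0.187 ± 0.0322 in Ezh2cKO and 0.181 ± 0.0188 in the 36kb deletion, against 0.193 ± 0.039, 0.386 ± 0.116 and 0.414 ± 0.0312 for members.

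No member reached the mean of 3 trans calls set for testing, and 9 reached a mean of 1. With that lower minimum, 4 members rose in Ezh2cKO, where 43.1% of 511 baits passed in limma and 16.2% rose. In the 36kb deletion Olfr618 rose (1.73; 33.1% of baits passed and 9% rose), and in the 42kb deletion Olfr622 (2.13) and Olfr557 (1.76) rose (42.9% passed and 8.02% rose). Olfr557 fell with stage (-1.93; 11.2% passed and 4.89% fell). These tests rest on 0 to 9 calls per library. The rises in Ezh2cKO were at Olfr533 (1.33), Olfr618 (1.12), Olfr622 (1.09) and Olfr557 (0.90). The minimum was a mean over all 24 libraries, so a bait could reach it through the group where its calls were high. These 4 had means of 0.25 to 0.625 in E11.5 WT, under the minimum, and 1.375 to 3.125 in Ezh2cKO. Their rises are therefore a description of baits picked partly by their Ezh2cKO calls. Olfr622 had 0 or 1 calls in each E11.5 WT library and 0 to 3 in Ezh2cKO (limma adjusted p = 0.00776). The 5 members with most trans calls were Olfr620, Olfr533, Olfr1349, Olfr618 and Olfr622.

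Most trans contacts were seen in 1 library (95.9% of 1319), but a few recurred. The 1 Mb window at 20 Mb of chromosome 12 took 161 of 1508 member trans calls (10.7%), from 26 members in 23 libraries, and 7 calls of other chromosome 7 baits. Olfr620, a class I receptor with a mean of 1.88 trans calls, reached the fragment chr12:20225785-20230165 in 22 libraries, Olfr618 in 16, and Olfr622 and Olfr619 in 14 each. The protein-coding gene nearest to that fragment, Gm32719, lay 10.6 kb away. Olfr557, also of class I, reached a fragment of chromosome 5 (104448267 to 104448845) in 12 libraries, none of them E11.5 WT. The nearest protein-coding gene, Pkd2, lay 5.14 kb away. The 1 Mb window at 104 Mb of chromosome 5 took 20 calls from 8 members and 17 from other chromosome 7 baits. Over all baits it held 233 ends of trans calls, so it was not a target of members alone. Trans calls into receptor clusters of other chromosomes were rare, 0 to 7 per library. They made up 4.71% ± 3.58 of member trans calls in E11.5 WT (n = 8), where 1.56% of fragments of other chromosomes lie in such clusters, and all 54 distinct calls were seen in 1 library each. In the same libraries the share was 3.30% ± 1.16 for chromosome 7 baits without a receptor, 3.11% ± 2.91 for chromosome 2 receptors and 4.93% ± 1.53 for receptors of the remaining chromosomes. The one with the highest score joined Olfr1336 to a chromosome 16 cluster in a 42kb deletion library.

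Genes of olfactory signalling and receptor choice had 16 tested baits, of which 4 rose and 1 fell with stage. The counts of this and the following lists stand against 28.9% of all baits passing with stage, 10.8% in Ezh2cKO, 11.1% in the 36kb and 1.84% in the 42kb deletion. Lhx2, a homeodomain factor of receptor enhancers, had 33.0 calls at E8.5 and 27.2 at E11.5 (adjusted p = 0.375) and fell in Ezh2cKO (-0.96, adjusted p = 0.00362); Ebf1, a factor of the same enhancers, rose with stage (0.87, adjusted p = 0.00387). In Ezh2cKO 2 of the list rose and 3 fell, in the 36kb deletion 0 and 2, and in the 42kb deletion 1 and 0. Of 6 tested Trim baits beside the receptors, ubiquitin ligase genes, 2 rose and 0 fell with stage, Trim6 (1.41) and Trim21 (0.67). In Ezh2cKO 1 rose, Trim68 (0.62), and 1 fell, Arfip2/Trim3 (-0.47). Trim21 fell in the 36kb deletion (-0.63), where 0 rose, and 0 rose and 0 fell in the 42kb deletion. Of 23 tested vomeronasal receptor baits of chromosome 7, 2 rose and 0 fell with stage and 0 rose and 5 fell in Ezh2cKO, with medians of 0.01 and -0.44; 1 rose and 1 fell in the 36kb deletion, and 0 rose and 2 fell in the 42kb deletion. Of 58 zinc finger baits of the chromosome, 12 rose and 4 fell with stage, a share near the background, 3 rose and 2 fell in Ezh2cKO, 1 rose and 6 fell in the 36kb deletion, and 1 rose and 2 fell in the 42kb deletion.

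Baits of cell type marker genes were few. Olfactory neuron markers had 2 tested baits, of which only Adcy3 passed, rising in Ezh2cKO (0.64, adjusted p = 0.0195). Endothelial markers had 3, of which Tek (1.27) and Cdh5 (2.14) rose with stage, Tie1 fell in Ezh2cKO (-0.71, adjusted p = 0.0312) and Cdh5 fell in the 42kb deletion (-1.84, adjusted p = 0.0192). Neural crest markers had 4, of which 2 rose with stage, Foxd3 fell in Ezh2cKO (-2.01, adjusted p = 0.000249) and Twist1 rose in the 36kb deletion (0.57, adjusted p = 0.0391). The 2 tested epithelial marker baits passed in none of the 4 limma comparisons. The part of these cell types in the member results was not tested.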

How the data were processed

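Deposited lists of promoter capture Hi-C interactions from 24 libraries were analysed, 1 per file. A line pairs a bait with another fragment. Its score comes from CHiCAGO, per the deposited file names, and none is under 5. Coordinates are GRCm38 (mm10), per the submitters' processing notes. The sources used here name no aligner. Groups came from sample titles, since 1 genotype field (36kb deletion, PA2, replicate 2) repeats another sample's title. Titles call replicates biological except in the 42kb deletion, whose 2 libraries may be technical repeats. Its p-values take the spread of all 12 groups and count these 2 libraries as independent, so they may be too small. Each library has its own batch label.

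Baits were named by RefSeq genes of GRCm38.p6. Calls per bait, at either end of a pair, were analysed as log2 of the count plus 0.5 over the library's total in limma 3.58.1 (R 4.3.3; a mean for each of 12 groups, trend, two-sided tests), for baits with a mean of at least 5 cis or 3 trans calls and windows with 20. Adjusted p-values are Benjamini-Hochberg over all baits, threshold 0.05. The unit required these tests on numbers of calls, not on scores. Named members were those past the threshold, at most 10 each way, and leaders by calls or cluster, with the most recurrent contacts; recurrent calls within clusters and in trans were chosen after their values were seen. Members and lists were chosen with earlier results of these data known. In simulated data 100 baits were changed 2-fold and 100 were changed 4-fold. For stage 25% and 84% of these were recovered among 10384 baits, with 27 false calls. For Ezh2cKO 63% and 88% were recovered among 10387, with 10 false calls. The 36kb deletion gave 29% and 88% among 10401, with 14, and the 42kb deletion 12% and 62% among 10379, with 11. In each comparison false calls were more than the nominal 0.05 of the baits passing, by least in Ezh2cKO. Alternatives covered the divisor, minimum, score, distance, pseudocount, replicate block, cluster gap and leaving out each library; first-column calls and distances under 10 Mb were added after seeing the data.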

Additional observations from a re-analysis of the deposited data

How the results depend on the processing

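Replicate numbers did not pair the samples: deviations of same-numbered libraries correlated between -0.086 and 0.158 over 66 group pairs. With the replicate number as a block, 32, 14, 10 and 4 members passed for stage, Ezh2cKO, the 36kb and the 42kb deletion, against 33, 14, 11 and 5 without it. With a score of 7 or more the counts were 19, 8, 4 and 2, with a mean of at least 10 calls 21, 6 and 7 for the first 3, with a mean of at least 2 calls 2 for the 42kb deletion, and at distances of 100 kb or more 7 and 2 for the deletions. Under 10 Mb, 19 passed for stage and 2 for the 42kb deletion. With first-column calls alone, 5 passed for Ezh2cKO and 6 for the 36kb deletion. The minimum, score, distance and first-column settings also change which baits are tested. The share of all baits passing in them is not given here, so these counts cannot be set against a background. Olfr710 changed sign in the stage comparison under 10 Mb (-0.01). Leaving out each library gave 14 to 35 for stage, 7 to 18 for Ezh2cKO, 4 to 11 for the 36kb and 0 to 6 for the 42kb deletion. For windows that range was 5 to 8, 4 to 7, 2 to 4 and 2 to 6, and a score of 7 or more gave 3, 2 and 2 in Ezh2cKO and the deletions. For trans calls, a mean of at least 1 gave 1, 4, 1 and 2 members where the planned minimum tested 0; other trans settings gave no tested member. In E11.5 WT the within-cluster share was 52.6% and 64.2% with cluster gaps of 500 kb and 2 Mb, and the between-cluster share 8.46% and 2.92%, or 4.82% with a score of 7 or more. That score also gave 0.0344 trans calls per member and 0.0% of them in receptor clusters. Leaving out single libraries gave 1.20% to 1.23% for the cis share, 55.9% to 56.9% within and 5.69% to 6.16% between clusters, 0.186 to 0.199 trans calls per member and 4.00% to 5.38% into receptor clusters. The cause of these differences was not tested. Few calls per bait limit precision, and read depth is unknown.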
